A study of Mus musculus with 14 samples.

Results

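Alveolar type I and caveolar genes were followed across lung tumors of 3 sizes and control lung of the mouse. The set comprised Pdpn, Cav1, Cav2, Aqp5, Aqp1, Ager and Gprc5a, and its members were all probe sets of the array to which the platform annotation assigned one of these symbols and no other. Of the 7 listed genes, 4 had such a probe set, namely Pdpn (104469_at), Cav1 (160280_at and 97849_at), Aqp1 (93330_at and 161559_i_at) and Ager (92181_at). These were 6 of the 12422 probe sets examined, and 4 of the 8251 genes that had a probe set of their own. Cav2, Aqp5 and Gprc5a were not analysed here.

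RNA was hybridised to 14 Affymetrix Murine Genome U74v2 arrays. The tumors came from mice of the CD2F1 (DBA/2 x Balb/C) background that were hemizygous for an SPC/myc transgene, in which the surfactant protein C promoter drives c-Myc in the respiratory epithelium, and the mice were 9 to 13 months old. There were 3 pools of small tumors (about 1 mm, 3 to 4 tumors per pool), 4 middle-sized tumors (4 to 5 mm) and 3 large tumors (10 mm or more). The control was lung of 4 non-transgenic mice of the same background and age. According to the methods, no animal gave more than 1 sample, and all comparisons with control lung share the same 4 control arrays.

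The alveolus is lined by flat type I cells, across which gas diffuses, and by cuboidal type II cells, which secrete surfactant. Podoplanin (Pdpn) is a membrane glycoprotein of type I cells and also of lymphatic endothelium and mesothelium, and the receptor for advanced glycation end products (Ager) is abundant in type I cells. Caveolin 1 (Cav1) forms the small membrane pits named caveolae together with caveolin 2 (Cav2), in type I cells as well as in endothelium, smooth muscle and fibroblasts. Aquaporin 1 (Aqp1) is a water channel of capillary endothelium and red blood cells, while aquaporin 5 (Aqp5) is the water channel of type I cells. Gprc5a is a retinoic acid-inducible receptor of the lung epithelium whose loss leads to lung tumors in mice. In a sample of whole tissue, fewer cells of a type and less RNA per cell cannot be told apart.

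The deposited values were MAS5 signals, a linear intensity with no unit, and the trimmed mean was 250.1 on 13 arrays. For middle tumor replicate 3 it was 196 with its zeros included, and 25.0% of the values of this array were at 0 or below 1e-06. These were treated as missing. Among probe sets of the members, cavins, caveolins and aquaporins, those numbered 160280 or higher were missing on this array and no others. The alternative of scaling to one median counted the zeros in the median of this array. That median was 48.6, against 90.7 to 117 on the other arrays, so this scaling raised its measured signals most. The methods took a signal of 70 as the lower limit of expression, and lower signals were set to 70 before taking log2. Where the zeros were kept as an alternative, they entered as 70 too. The transgene product served as a check of the labels, since Myc had signals of 325 to 2165 (median 1318) in the 10 tumors and of 24.1 to 35.6 in the control lungs.

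The regions in front of the genes are shown because c-Myc binds the E-box CACGTG, so that the letters can be read beside the expression values. The windows are the 250 bases before the annotated start (RefSeq, GRCm38.p6), written 5′ to 3′ on the strand of the gene in lower case, with CACGTG in capitals. Pdpn lies on chromosome 4 (143267409 to 143299564, minus strand), and its window is chr4:143299565-143299814. Cav1 lies on chromosome 6 (17306335 to 17341328, plus strand), and the window before its first start is chr6:17306085-17306334. Aqp1 lies on chromosome 6 as well (55336299 to 55348555, plus strand), with the window chr6:55336049-55336298.
Pdpn: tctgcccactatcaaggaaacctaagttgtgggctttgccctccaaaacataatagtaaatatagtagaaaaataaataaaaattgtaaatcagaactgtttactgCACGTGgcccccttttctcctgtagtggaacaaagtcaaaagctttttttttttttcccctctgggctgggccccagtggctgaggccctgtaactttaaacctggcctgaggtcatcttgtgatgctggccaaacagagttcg
Cav1: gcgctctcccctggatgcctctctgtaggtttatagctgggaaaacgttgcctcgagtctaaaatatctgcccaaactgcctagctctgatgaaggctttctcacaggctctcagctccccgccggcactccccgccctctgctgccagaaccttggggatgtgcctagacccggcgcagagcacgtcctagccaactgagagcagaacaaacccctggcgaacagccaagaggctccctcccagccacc
Aqp1: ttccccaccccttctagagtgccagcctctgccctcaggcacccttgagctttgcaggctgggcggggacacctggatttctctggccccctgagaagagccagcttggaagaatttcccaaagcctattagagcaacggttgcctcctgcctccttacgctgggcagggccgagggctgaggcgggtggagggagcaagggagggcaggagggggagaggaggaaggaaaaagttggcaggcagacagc
The Pdpn window held 1 CACGTG, which begins 144 bases before the start. The Cav1 and Aqp1 windows shown held none, and none was found in the window of a further Cav1 start or in that of Ager (chromosome 17, 34597460 to 34600937), which both lie inside the annotated gene. The motif reads the same on both strands, and it was present in 6.02% of 32851 promoter windows of this length and in 8.63% of the 6387 windows of genes tested here. Such a match is a description of the letters only. Cav2, the partner of Cav1, lies 17.2 kb from Cav1 on the same chromosome.

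Every member probe set with a measurable signal was lower in tumors than in control lung, and Ager was reduced least. With reference to the mean of the control lungs, the mean of all tumors was 9.15% for Aqp1, 10.2% for Pdpn (with its signals under 70 taken as deposited), 20% for Cav1 and 48.6% for Ager. All 4 tested member probe sets were called lower at an adjusted p under 0.05 (limma, Benjamini-Hochberg over 8127 probe sets), where 20.8% of all probe sets were called lower and 22.7% higher. These were 1687 lower and 1842 higher, and with the arrays scaled to one median 1033 were lower and 1972 higher of 8105 tested. In all 4, every tumor with a value lay below every control lung, as was the case for 12.6% of all probe sets.

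Pdpn, which codes for podoplanin, had signals of 90.2, 112.0 and 87.8 in the pools of small tumors. The middle-sized tumors had 62.2, 54.3, 74.2 and 65.9, and the large tumors had 37.4, 28.1 and 63.3. Control lung had 602, 758, 672 and 612. The groups did not overlap, and the highest tumor lay 5.37-fold below the lowest control lung. The means were 96.7 ± 13.3 in small tumors (SD, n = 3), 64.2 ± 8.30 in middle-sized tumors (n = 4), 42.9 ± 18.3 in large tumors (n = 3) and 661 ± 71.8 in control lung (n = 4). All 3 small tumor pools, 1 middle-sized tumor and none of the large tumors reached a signal of 70. Hence, the large tumors were at least 9.44-fold lower than control lung when set against this limit. The log2 fold change of all tumors over control lung was -3.07 ± 0.12 (SE, limma adjusted p = 1.8e-10), in which tumor signals under 70 entered as 70. Since 6 of the 10 tumors lay under this limit, the fall of Pdpn is a lower bound, and it was -3.39 with the signals taken as deposited.

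**Figure D1:**
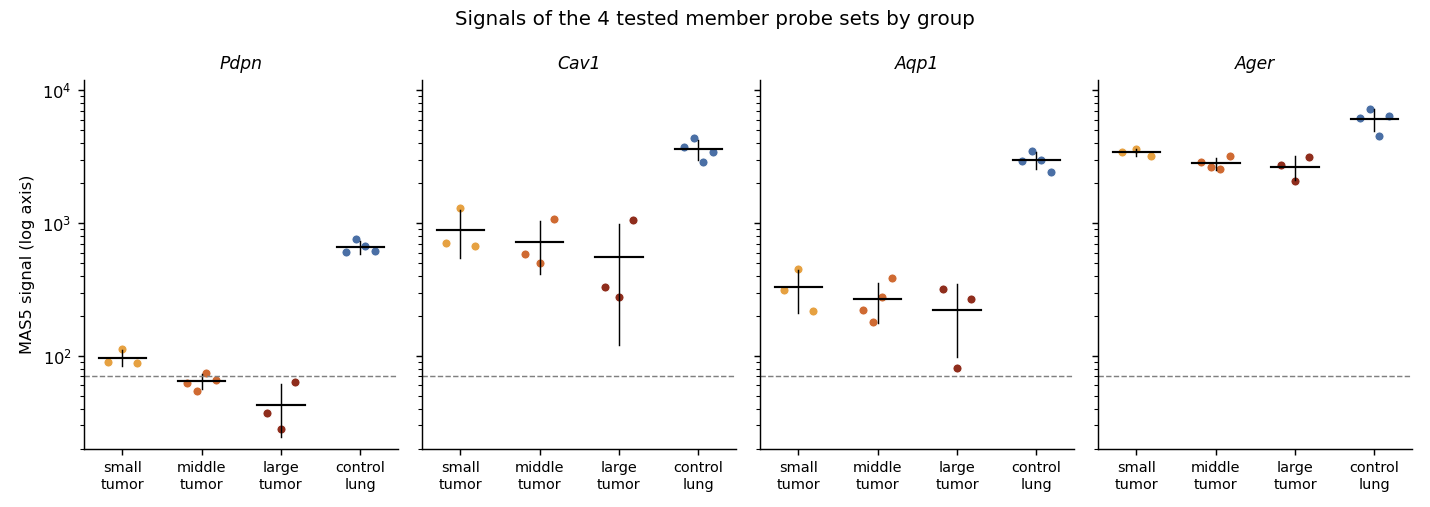
MAS5 signals (log axis) of the 4 tested member probe sets on each array, by group from left to right: small, middle-sized and large tumors, then control lung. Points are arrays, horizontal bars are group means, vertical bars are ± 1 SD and the dashed line is the signal limit of 70. Control lung lies above every tumor in each panel, by the widest margin for Aqp1 and Pdpn and the narrowest for Ager, and Cav1 of middle tumor replicate 3 is missing.

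Cav1, the structural protein of caveolae, had signals on 160280_at of 705, 1299 and 677 in small tumors. In middle-sized tumors the signals were 587, 500.0 and 1077, with that of replicate 3 missing and left out of the fit, and in large tumors they were 331, 277 and 1048. Control lung had 3765, 4394, 2893 and 3399.6. The highest tumor, a pool of small tumors, was 2.23-fold below the lowest control lung. Unlike Pdpn, Cav1 stayed well above the signal limit in all 9 tumors with a value, with means of 894 ± 351 in small, 722 ± 311 in middle-sized and 552 ± 431 in large tumors (SD, n = 3 each) and of 3613 ± 632 in control lung (n = 4). The log2 fold change of all tumors over control lung was -2.47 ± 0.32 (SE, limma adjusted p = 3.9e-05).

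Aqp1, a water channel prominent in capillary endothelium, had signals on 93330_at of 312, 453 and 217 in small tumors. Middle-sized tumors had 222, 181, 276 and 386, and large tumors had 319, 81.4 and 269. Control lung had 2922, 3504, 3001 and 2445. The highest tumor lay 5.4-fold below the lowest control lung, and large tumor replicate 2 stood lowest of the tumors. Means were 327 ± 119, 266 ± 88.9 and 223 ± 126 in small, middle-sized and large tumors (SD, n = 3, 4 and 3), against 2968 ± 434 in control lung (n = 4). The log2 fold change of all tumors was -3.57 ± 0.31 (SE, limma adjusted p = 5.3e-07), the 25th lowest of 8127 probe sets.

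Ager, the receptor RAGE of type I cells, had signals of 3414, 3631 and 3201 in small tumors. Those of middle-sized tumors were 2861, 2624, 2556 and 3206, and those of large tumors 2752, 2059 and 3139. Control lung had 6129, 7199, 4502 and 6404. Here the gap was narrow, since the highest tumor was only 1.24-fold below the lowest control lung. That was replicate 3 (4502), with the other control lungs at 6129 or more. The highest signal of any probe set on the array of replicate 3 was 6496.5, against 8472 or more on every other array. Whether this lowered its Ager signal was not tested. The means were 3415 ± 215 in small, 2812 ± 293 in middle-sized and 2650.1 ± 547 in large tumors (SD, n = 3, 4 and 3), and 6058 ± 1133 in control lung (n = 4). The log2 fold change of all tumors was -1.03 ± 0.14 (SE, limma adjusted p = 4.0e-05), which ranked 735th from the lowest. Scaling the arrays to one median, which shifts the median of all probe sets in this comparison to 0.20, reduced the change of Ager to -0.81, still called.

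The second probe sets of Cav1 and Aqp1 carried little signal and were not tested. Cav1 97849_at had 22.7 to 71.2 (median 48.4) in the 10 tumors and 32.6, 44.9, 58.0 and 102 in control lung. Aqp1 161559_i_at had 8.3 to 72.0 (median 15.9) in the 9 tumors with a value and 12.9, 19.2, 32.8 and 36.3 in control lung. In both, tumors and control lung overlapped, and the readings for Cav1 and Aqp1 therefore rest on 1 probe set each.

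In 4 of the 6 pairs of members the falls in signal were unequal. Whether the probe sets respond alike to their RNA was not tested, so these are differences of signal only. For each pair of members the difference of their log2 signals within an array was compared between tumors and control lung with an exact two-sided permutation test, for 6 pairs with Benjamini-Hochberg adjustment, a comparison chosen after the values had been seen. Relative to Ager, the log2 change was -2.53 for Aqp1 (p = 0.002, adjusted p = 0.00559), -2.05 for Pdpn (p = 0.002, adjusted p = 0.00559) and -1.46 for Cav1 (p = 0.0028, adjusted p = 0.00559, exact permutation test), each p being the smallest its 1001 or 715 arrangements allow. All 10 tumors, or all 9 with a Cav1 value, lay below every control lung in these differences. Aqp1 also fell further than Cav1, the log2 change of Cav1 being 1.11 above that of Aqp1 (exact permutation p = 0.0112, adjusted p = 0.0168). Pdpn differed from Cav1 by -0.61 (exact permutation p = 0.106, adjusted p = 0.106) and from Aqp1 by 0.48 (p = 0.0879, adjusted p = 0.105). Without the limit of 70, which cuts the Pdpn values of most tumors, the difference between Pdpn and Cav1 was -0.94 (exact permutation p = 0.0028, adjusted p = 0.0042).

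All 4 tested members were called lower in each size of tumor, where 16.3% of all probe sets were called lower in small, 16.2% in middle-sized and 17.8% in large tumors (limma). In middle-sized tumors the split over all probe sets was 1316 lower and 1188 higher, and 656 lower and 2067 higher with the arrays scaled to one median. Aqp1 had log2 fold changes of -3.23, -3.53 and -3.94 in small, middle-sized and large tumors over control lung, with SE between 0.37 and 0.40. Those of Pdpn were -2.78, -3.21 and -3.23 (SE 0.14 to 0.16), of which the middle-sized and large values are limits set by the signal of 70 and were -3.37 and -4.02 for Pdpn with the signals taken as deposited. Without large tumor replicate 2 the change of Aqp1 in large tumors was -3.33, which is smaller than that in middle-sized tumors. The log2 fold changes of Cav1 were -2.07, -2.39 and -2.96 (SE 0.41 each), the last being -3.56 without large tumor replicate 3 and that in middle-sized tumors being -3.21 with the missing value kept at 0 as deposited. Ager had -0.81, -1.09 and -1.19 (SE 0.17 to 0.18), and with the arrays scaled to one median it was not called in small (-0.68, adjusted p = 0.0803) or middle-sized tumors (-0.65, adjusted p = 0.0552). That scaling counted the zeros of middle tumor replicate 3, which raised the measured signals of this array. For Cav1, Aqp1 and Ager the mean was highest in small and lowest in large tumors, for Aqp1 and Ager only with large tumor replicate 2 included, but the sizes overlapped. The high mean of Cav1 in small tumors rested on 1 pool (1299), as the others (705 and 677) lay below the middle-sized mean of 722. Middle-sized and large tumors cannot be ordered for Pdpn, as all but 1 of their signals were under 70, and only for Pdpn did all small tumor pools lie above all middle-sized and large tumors. Tested against each other, the sizes gave no member call, and limma called 0% of all probe sets in each of the 3 pairs of sizes. For large against small tumors the limma log2 fold changes were -0.46 ± 0.17 for Pdpn (SE, adjusted p = 0.458), in which all large tumors entered as 70, -0.90 ± 0.44 for Cav1 (adjusted p = 0.637), -0.71 ± 0.43 for Aqp1 (adjusted p = 0.683) and -0.39 ± 0.19 for Ager (adjusted p = 0.638). With the signals taken as deposited that of Pdpn was -1.25 and was not called either. Without large tumor replicate 2 that of Aqp1 was -0.09, and without large tumor replicate 3 that of Cav1 was -1.49, neither being called. At an unadjusted p under 0.05 limma counted 503 probe sets for middle-sized against small, 812 for large against middle-sized and 650 for large against small tumors. The methods' unpaired test counted 226 lower and 115 higher, 185 lower and 276 higher, and 420 lower and 363 higher in these 3 comparisons.

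**Figure D2:**
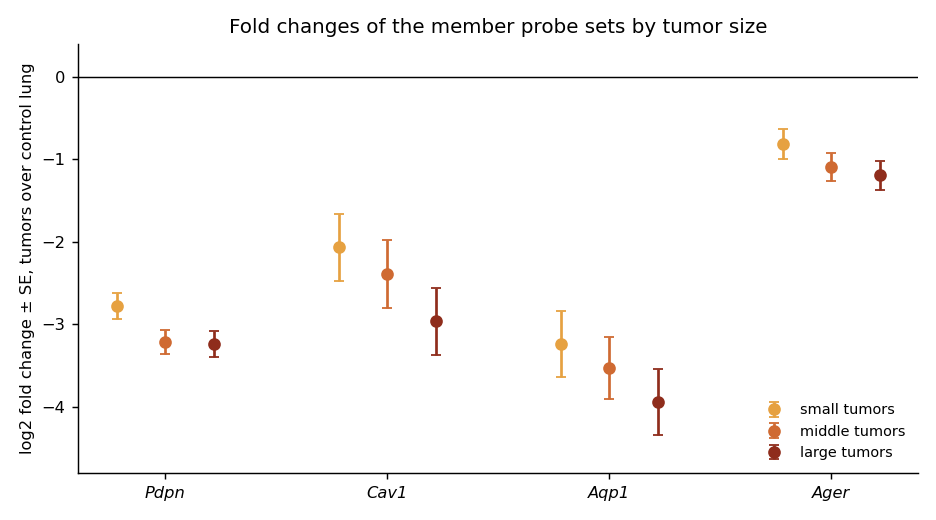
Log2 fold changes over control lung (limma, signals under 70 set to 70) of the 4 tested member probe sets, for small, middle-sized and large tumors from left to right within each gene. Bars are ± 1 SE, and the 3 sizes share the same 4 control lungs. Aqp1 reaches -3.94 in large tumors (-3.33 without large tumor replicate 2), the Pdpn values of middle-sized and large tumors are limits, and Ager stays between -0.81 and -1.19.

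Within the tumors, Cav1, Aqp1 and Ager varied together to different degrees, and the values below describe these arrays only, which share their scaling and tumor size. Over the 9 tumors with both values, Pearson's r of the log2 signals was 0.861 between Cav1 and Ager (Spearman's rho 0.9) and 0.731 between Cav1 and Aqp1 (rho 0.717). Over 10 tumors it was 0.835 between Aqp1 and Ager (rho 0.661). After each tumor was centred on the mean of its size, the correlation of Cav1 with Ager was 0.833 and that of Aqp1 with Ager was 0.86. No correlation is given for Pdpn, because 6 of its 10 tumor signals were set to the same limit of 70. Large tumor replicate 2 had the lowest signal of all tumors for Cav1, Aqp1 and Ager, and its Pdpn signal was under 70.

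The coat of caveolae is built from caveolins and cavins, and the cavins fell as well. Cavin1, required for the formation of caveolae, had signals on 104100_at of 959, 1154 and 894 in small tumors. Those of middle-sized tumors were 776, 808, 779 and 602 and those of large tumors 851, 516 and 581, against 2512, 3001, 2509 and 2641 in control lung. No tumor reached the control lungs, and the log2 fold change was -1.78 ± 0.13 (SE, limma adjusted p = 1.2e-07), while a second probe set of low signal (99901_at) gave -0.77 ± 0.20 (adjusted p = 0.0064). Cavin2, which helps to bend the membrane, had 200.5, 279 and 143 in the small pools. Middle-sized tumors had 150.0, 86.5 and 245, with replicate 3 missing and left out of the fit, and large tumors had 56.4, 46.0 and 128, against 2210.1, 2074, 1951 and 1975 in control lung. Its log2 fold change of -3.91 ± 0.26 (SE, limma adjusted p = 6.8e-08) was the largest fall of the list. Cavin3, on a probe set whose suffix _f marks probes shared within a sequence family, had 54.4 to 224 in the 10 tumors and 399 to 863 in control lung, with a log2 fold change of -2.21 ± 0.28 (limma adjusted p = 2.2e-05). Of 12 listed caveolar coat and associated genes, 8 were on the array and tested. Of these, 4 were lower, the 3 cavins and Ehd1, a membrane-shaping ATPase (-1.52), and none was higher, with a median of -0.92 against 0.03 over all probe sets. Over all probe sets 20.8% were called lower and 22.7% higher. The flotillins Flot1 (-0.22) and Flot2 (-0.32), which mark other membrane domains, and Dnm2 (-0.14), the dynamin that cuts vesicles off, were not called. Cav3, the muscle caveolin, had signals near the limit of 70 in all groups. Over the 9 tumors with both values, Cav1 and Cavin2 correlated with r = 0.886, as a description. In this correlation and in the fold change of Cavin2, its large tumor signals of 56.4 and 46.0 entered as 70.

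**Figure D3:**
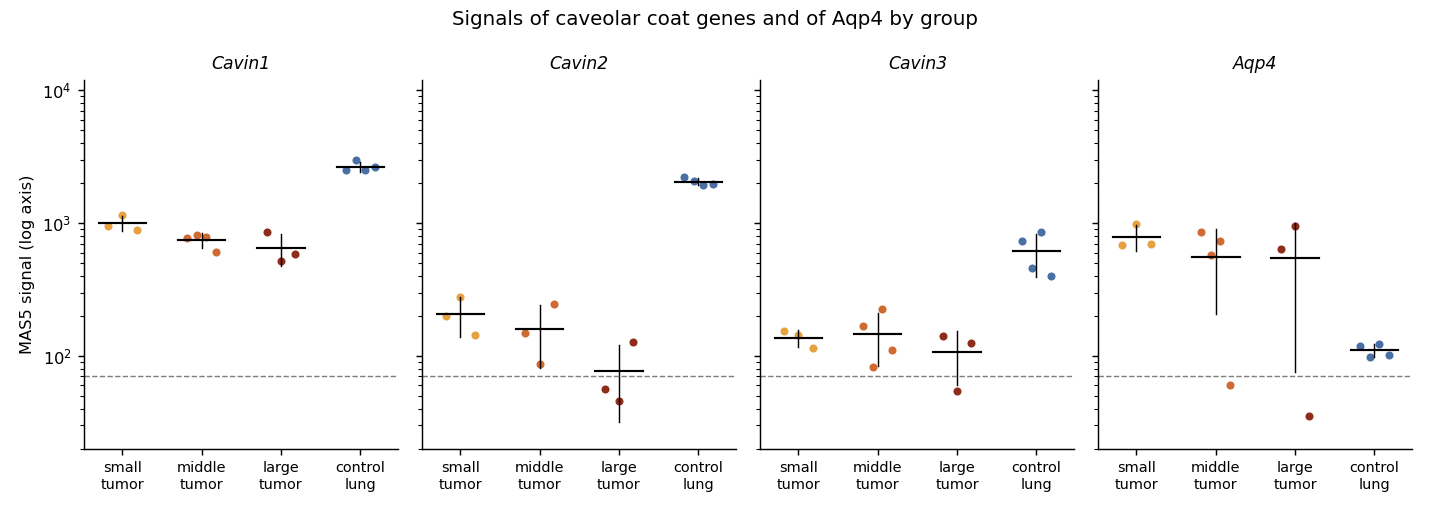
MAS5 signals (log axis) of Cavin1 (104100_at), Cavin2, Cavin3 and Aqp4 (102704_at) on each array, with groups, bars and dashed line as in the plot of the member signals. The cavins lie below control lung in every tumor, whereas Aqp4 lies above control lung in 8 tumors and below it in middle tumor replicate 4 (60.1) and large tumor replicate 3 (35.1).

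Of the other aquaporins, Aqp4 changed in the opposite direction. This water channel of the airway epithelium had signals on 102704_at of 687, 989 and 690.3 in small tumors. Middle-sized tumors had 850.4, 571, 729.6 and 60.1 and large tumors had 639, 952 and 35.1, against 118, 98.6, 123 and 102 in control lung. Its signal was above control lung in 8 tumors, but middle tumor replicate 4 and large tumor replicate 3 were below all control lungs. The log2 fold change was 2.11 ± 0.65 (SE, limma adjusted p = 0.017), and it was not called when all probe sets entered without a filter (adjusted p = 0.0613). The second probe set (102703_s_at) was low in the same 2 tumors and gave 1.48 ± 0.38 (limma adjusted p = 0.0060). Both tumors had the highest measured Cav1 signal of their size (1077 and 1048) and also the highest Hopx signal of their size (1899 and 1435). In small tumors, by contrast, the pool with the highest Aqp4 signal (989) also had the highest Cav1 (1299) and Hopx signal (1622). Of 9 listed aquaporins other than Aqp1 and Aqp5, 6 were on the array and 2 were tested, and the other one tested, Aqp8, was not called (0.10).

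Further genes known from type I cells were lower in most cases. Of 26 listed, 19 were on the array and 17 were tested, and 14 of them were lower while none was called higher (median log2 fold change -1.08). Over all probe sets 20.8% were called lower and 22.7% higher. Sema3a and Sema3f, under 70 in every tumor, passed the filter through control lung alone and could only be called lower. The largest falls were those of Spock2, a proteoglycan of the matrix (-3.63 ± 0.25, limma adjusted p = 5.6e-08), and of Igfbp6, which binds insulin-like growth factors (-3.56 ± 0.31, adjusted p = 5.5e-07). Hopx, a transcriptional cofactor of type I cells, had 434 to 1899 in tumors and 3496 to 5982 in control lung (-2.15 ± 0.26, SE, adjusted p = 1.3e-05), and Emp2, a membrane protein of type I cells, had 428 to 1023 in tumors and 2006 to 2474 in control lung (-1.74 ± 0.15, adjusted p = 3.4e-07). The keratin Krt7 (-0.12), the adaptor Lmo7 (-0.25) and S100a6 (-0.78 ± 0.52), a calcium-binding protein, were not called. The summed signal of the 19 genes was 11154 to 22163 in 9 tumors and 31420 to 43345 in control lung, leaving out the array with missing values, as in all sums below. Col4a3 and Cyp2b19 were below 70 on every array. By size, 13 of the 17 genes were lower in small, 12 in middle-sized and 12 in large tumors.

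Of 8 ligands and signal partners of RAGE, 6 were tested and 5 were lower. S100a8 and S100a9, calcium-binding ligands made by neutrophils, fell most (-2.77 ± 0.81, limma adjusted p = 0.013, and -2.33 ± 0.71, adjusted p = 0.016). Both calls were lost when control lung replicate 1 or 2 was left out, and that of S100a9 also without the filter on low signals, with adjusted p between 0.0591 and 0.0769. Diaph1, which binds the tail of the receptor inside the cell, was not called (0.02). Of 7 podoplanin partners 5 were tested, and Msn, a protein that ties membrane proteins to actin, was lower (-0.81 ± 0.14, adjusted p = 0.00037) while Cd44, the hyaluronan receptor, was higher (1.55 ± 0.36, adjusted p = 0.0028). With 1 of 5 called in each direction, this list was near the share over all probe sets, 20.8% lower and 22.7% higher. Cd44 had 125 to 753 in tumors and 108 to 129 in control lung (mean 118 ± 9.78, SD, n = 4), so that the groups overlapped. Of its 3 probe sets only that of highest mean signal is given. Msn was not called with the values of 0 kept as deposited (adjusted p = 0.173). Of 19 retinoid genes and relatives of Gprc5a 6 were tested, with Aldh1a1, an enzyme of retinoic acid synthesis (-2.94 ± 0.33, adjusted p = 5.7e-06) and Rarg, a receptor of retinoic acid (-0.96 ± 0.29, adjusted p = 0.015), lower and Rbp4, a retinol carrier, higher (1.21 ± 0.20, adjusted p = 0.00017). A second retinoic acid receptor, Rara, was called lower with signals of 9.16 to 67.5 in tumors and 53.0 to 151 in control lung (mean 104 ± 40.3, SD, n = 4). These ranges overlapped, and Rara passed the filter through control lung alone, so that it could only be called lower. The call of Rarg was lost without control lung replicate 1 or 2 and with the arrays scaled to one median, with adjusted p between 0.0539 and 0.118.

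Type II cell markers did not fall with the members. Over all probe sets 20.8% were called lower and 22.7% higher. Of 15 listed type II markers, 9 were on the array and 8 were tested, of which none was lower and 4 were higher, with a median of 0.54. Those higher were Cebpa, a transcription factor of type II cells (1.55 ± 0.12, limma adjusted p = 1.8e-07), the mucin Muc1 (1.30 ± 0.16, adjusted p = 1.6e-05), the phospholipid enzyme Lpcat1 (0.89) and surfactant protein B (Sftpb, 0.63). Surfactant protein C (Sftpc) had 9382 ± 884 in tumors (SD, n = 10) and 9806 ± 2846 in control lung (n = 4). The summed signal was 33447 to 53556 in 9 tumors and 24892 to 35038 in control lung.

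Markers of other cell types of the lung, some of which also express Pdpn, Cav1 or Aqp1, were lower in most lists. The sums of leukocyte and airway markers overlapped control lung. Over all probe sets 20.8% were called lower and 22.7% higher. Some genes lay under 70 in every tumor with a value, passed the filter through control lung alone and could only be called lower. They were Calcrl, Nos3 and S1pr1 (endothelial), Reln (lymphatic), Msln (mesothelial), and Myh11, Cnn1 and Smtn (smooth muscle). Of 25 endothelial markers 22 were on the array and 21 were tested, and 20 were lower and none higher, with a median of -2.89. Their summed signal was 2941 to 5313 in 9 tumors and 29679 to 36495 in control lung. Thbd (-4.28), which codes for thrombomodulin, and the junction protein Cldn5 (-4.24) fell most, and Cdh5, the endothelial cadherin, had 166 to 541 in tumors against a mean of 2842 ± 465 in control lung (SD, n = 4). Pecam1, a low signal here (145 ± 30.4 in tumors and 103 ± 39.6 in control lung), was not called. All 3 tested lymphatic markers were lower, among them Lyve1 (-3.69) and Flt4 (-1.77), with sums of 143 to 266 in tumors and 956 to 2054 in control lung and with Prox1 below 70 on every array. Both tested mesothelial markers, Upk3b (-2.41) and Msln (below 70 in every tumor), were lower, with sums of 100.1 to 249.8 in tumors and 687 to 897 in control lung and with Wt1 below 70 on every array. Of the 3 tested erythroid markers all were lower (sums 1210 to 5180 in tumors and 7597 to 15590.1 in control lung), led by Alas2 (-4.46) and Hba-a1 (-2.40), with Epb42 below 70 on every array. Lower as well were all 9 smooth muscle markers (2039 to 2748 in tumors and 6412 to 7814 in control lung), with Myh11 and Cnn1 below 70 in every tumor, and 9 of 13 fibroblast markers (3400.0 to 7817 in tumors and 15432 to 17974 in control lung), led by Tcf21 (-3.48) and Inmt (-3.40). Of 9 tested leukocyte markers 5 were lower, led by Ptprc (-1.72) and Cd79a (-1.66), with sums of 2940 to 7340 in tumors and 5731 to 7662 in control lung and Cd3g below 70 on every array. Of 4 tested airway markers, Foxj1 (-1.65) and Ltf (-1.40) were lower (sums 2844 to 15320.0 in tumors and 10901 to 18644 in control lung), though Ltf kept its call in only 12 of 27 alternatives (adjusted p up to 0.13). The airway markers Scgb1a1 (-0.55) and Cyp2f2 (-1.08) were not called. Nor were the leukocyte markers Cd68 (0.20), Lyz2 (-0.08), Cd3e (-0.34) and Cd79b (-0.40). Fibroblast markers not called were Col1a1 (-0.25), Col1a2 (0.35), Col3a1 (-0.46) and Eln (-0.44), though another Col1a2 probe set was lower (-0.95). The part of these cell types in the lower member signals was not tested.

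**Figure D4:**
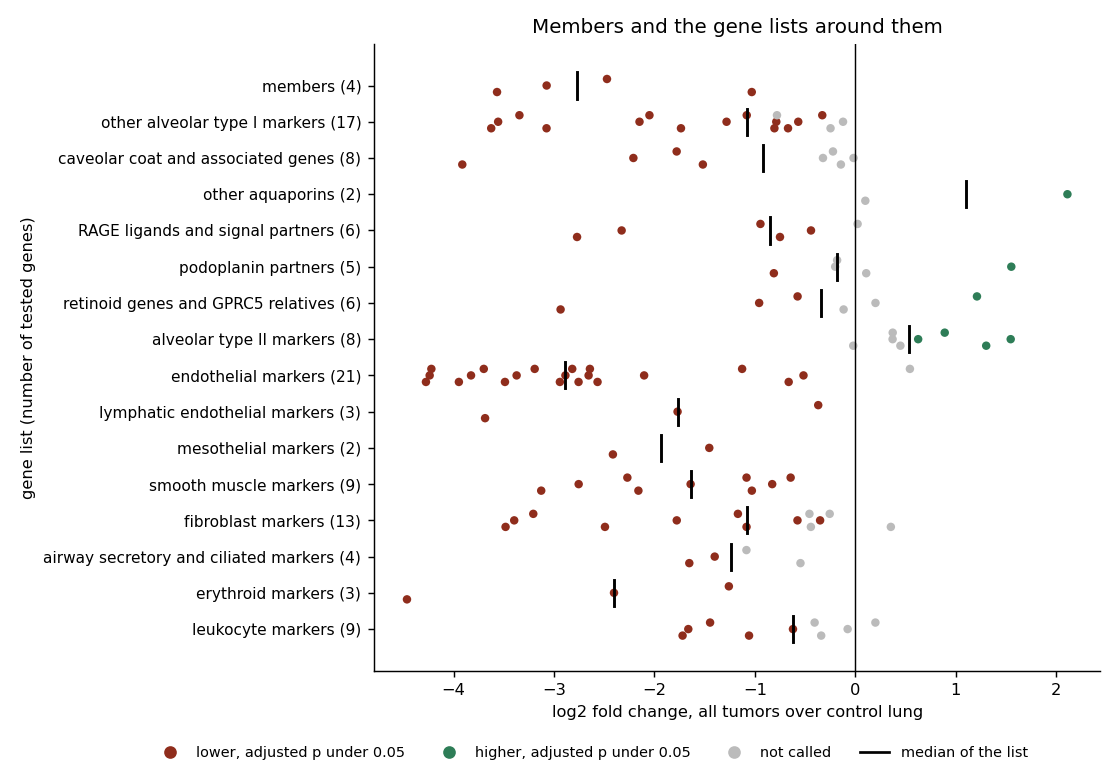
Log2 fold changes of all tumors over control lung for each tested gene of the member set and of the lists around it, 1 point per gene at its probe set of highest mean signal. Colours give the call (limma, adjusted p under 0.05) and black strokes the median of each list. Endothelial markers have a median of -2.89, other type I markers of -1.08 and type II markers of 0.54.

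The genes most like each member were found by the root mean square difference of log2 signals centred on the control mean, over the arrays with a value and among 7337 probe sets. For Pdpn these were Kit (0.175), a receptor of mast cells and stem cells, Tie1 (0.198), an endothelial receptor, and the smooth muscle myosin Myh11 (0.20), over 13 or 14 arrays and with tumor signals near or under the limit of 70 in all of them, so that values set to 70 decide much of this likeness. Cav1 was closest to Hopx (0.402), to the kinase Sgk1 (0.416) and to the adhesion protein Tns2 (0.48), over 13 arrays. Aqp1 was closest to Ace (0.481), the angiotensin-converting enzyme, to the lipid phosphatase Plpp1 (0.487) and to the endothelial phosphatase Ptprb (0.527). Ager was closest to B2m (0.173), the light chain of MHC class I, to S100a13 (0.191) and to H2-D1 (0.20), a heavy chain of MHC class I whose close relatives can share its probes. This measure includes the size of the fall from control lung, so that likeness does not assign a cell type. The gene closest to Cav1 was a type I cell marker, and those closest to Pdpn included an endothelial and a smooth muscle marker. Those closest to Aqp1 included an endothelial marker, and those closest to Ager were on none of these lists.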

How the data were processed

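RNA of 14 samples was measured on Affymetrix U74v2 arrays. The authors computed the deposited values with MAS5, as intensity signals on a linear scale that were normalised to a target of 250 per array. Of 12488 rows, 66 control probe sets were left out, and values at 0 or below 1e-06 were treated as missing. Of the other 12422 probe sets, 10833 had 1 gene symbol, 396 had several and 1193 had none in the platform annotation used. Signals under 70 were set to 70, log2 was taken, and the 8127 probe sets with at least 70 on at least 3 arrays were tested in limma 3.58.1 (R 4.3.3), in a model of 4 groups with a trend in the spread. A call is an adjusted p under 0.05 (Benjamini-Hochberg over all probe sets tested). In the limma fits all tumors means the unweighted mean of the 3 sizes, while mean signals of all tumors average the single arrays. Lists used the probe set of highest mean signal for each gene, and no set test was run. In each list the 2 largest falls and rises among called genes were to be named, and further list genes were named after their values were seen. Members and lists were chosen with earlier results of these data known. The fit was tested on simulated data. Promoter windows came from RefSeq (GRCm38.p6), and protein sequences were not used here. No 2 arrays were identical (highest correlation 0.9884). The number of arrays limits the precision. The alternatives were no limit or a limit of 35, quantile normalization, scaling to one median, no filter or 70 on 7 arrays, 1 probe set per gene, a robust spread, array weights, only the groups compared, a replicate block, the methods' unpaired test, zeros kept, and leaving out each array.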

Additional observations from a re-analysis of the deposited data

Results flagged for a closer look

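Of 118 groups of values examined for members and other named genes, 12 had 1 sample far from the others by Dixon's ratio of gap to range on log2 signals. Chance sets apart about 1 in 20 groups. None of the 12 was a group of member values. Middle tumor replicate 4 stood low among the middle-sized tumors for Aqp4 on both probe sets (60.1 and 32.8) and for Cavin1 (602). Middle tumor replicate 1 stood apart among the middle-sized tumors for Emp2 (428, low), Upk3b (145, high) and Rbp4 (1482, high), and among all tumors for Rbp4 (1482, high) and Foxj1 (1116, high). Large tumor replicate 3 was low among all tumors for Igfbp6 (35.8), and large tumor replicate 2 was low for Msn (1069) and Ptprc (5.15). The ratio used signals as deposited, and the flagged signals of Igfbp6, Ptprc and Aqp4 lay under 70, where values have no order. The first pool of small tumors was high for S100a8 (1740.3).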

How the results depend on the processing

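Of 444 values of the 4 tested members against control lung under the alternatives, 442 kept direction and call, and the other 2 were those of Ager in small and middle-sized tumors with the arrays scaled to one median, in which the direction held. All 4 members kept their calls in each of these comparisons when any 1 array was left out, with 4 called throughout. Between sizes, the methods' unpaired test at an unadjusted p under 0.05 called 2 members for middle-sized against small and 1 for large against small tumors, and leaving out arrays gave 0 in each pair. The unequal change of Pdpn and Cav1 was -0.94 without the limit of 70 (exact permutation test, adjusted p = 0.0042), an alternative chosen after seeing the data, against -0.61 (adjusted p = 0.106) with it. Among the lists, quantile normalization gave 2 podoplanin partners lower and 1 endothelial marker higher. Keeping zeros, which entered as 70, gave 0 podoplanin partners lower, 2 type II markers higher and 1 airway marker lower. Scaling to one median gave 1 airway marker lower. The cause of these differences was not tested. With the replicate number as a block, all 4 members were called in every comparison with control lung (4 of 4) and none between sizes (0), and 1616 probe sets were lower in all tumors. The numbers did not pair the samples, since deviations of same-numbered samples correlated between -0.211 and 0.12. Scaling to one median counted the zeros of middle tumor replicate 3, which raised the measured signals of this array. This scaling moved the counts over all probe sets to 1033 lower and 1972 higher in all tumors, against 1687 and 1842 as reported. In the same way the lower counts were 785 in small, 656 in middle-sized and 946 in large tumors, against 1323, 1316 and 1444 as reported, and 2067 were higher in middle-sized tumors, against 1188. Array weights gave 2007 lower in small tumors, against 1323, and 31 lower and 17 higher for large against small tumors, where 0 were called. The methods' unpaired test with adjustment gave 821 lower and 513 higher in middle-sized tumors, against 1316 and 1188. Weak signals limit Pdpn in tumors and the second probe sets of Cav1 and Aqp1, for which values under 70 have no order.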
